A study of Mus musculus with 5 samples.

Results

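The circadian clock genes were followed across bulk RNA-seq of mouse mammary luminal cells. The set holds 10 genes chosen by name, which are the activators *Arntl*, *Clock* and *Npas2*, the repressors *Per1*, *Per2*, *Per3* and *Cry1*, the nuclear receptors *Nr1d1* and *Nr1d2*, and the output gene *Dbp*. Each was found in 1 row of the expression table, so that 10 of 24319 genes are described, and all 10 had a mean of 1 FPKM or more, the minimum for a test. FPKM is the number of fragments per kilobase of transcript, scaled by the mapped fragments of the library, so that levels of different genes can be compared per length.

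The study kept MMTV-Cre;Brca1 fl/fl mice, in which the MMTV promoter drives Cre, and thereby the deletion of floxed *Brca1*, in mammary epithelium, and mice that also carried a floxed *Trp53* allele (Trp53 fl/+). Neither the labels nor the methods say which of these strains gave the bulk luminal libraries. There were 5 libraries of luminal cells, which the study sorted as CD24-high, CD29-low live cells. The labels give the strain as Mixed for all of them and the genotype as wild type for 3 libraries (WT 1, WT 2 and WT 3) and *Brca1* knockout for 2 (KO 1 and KO 2), whereas the study describes the bulk luminal cells as BRCA1-deficient. The labels give no animal, age, reproductive stage, batch or hour of collection. The study's methods name virgin and pregnant mice as sources of mammary glands, without saying which of them gave these libraries. Nothing says that the libraries came from separate animals, so that the p-values measure only the spread between these samples, which may be technical. The distance between neighbouring low FPKM values gave an approximate depth of 6180000 fragments in WT 1, 12900000 in WT 2, 30400000 in WT 3, 6350000 in KO 1 and 21300000 in KO 2, so that WT 3 was 4.91 times as deep as WT 1.

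*Brca1*, the gene named by the labels, was at 1.30, 1.32 and 0.234 FPKM in WT 1, WT 2 and WT 3 and at 1.20 and 1.34 FPKM in KO 1 and KO 2. The level of the whole gene therefore did not separate the labels (difference 0.27 on the log2 scale, SE 0.38, limma adjusted p = 0.936 after Benjamini-Hochberg correction), and it cannot show the loss of only some exons. WT and KO below are accordingly names of labelled libraries.

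WT 3 stood apart from the other 4 libraries. It held the lowest value of 51.9% of the 11481 genes tested, and all 5 mature luminal markers were highest in it. *Prlr*, the prolactin receptor, was at 148 FPKM in WT 3 and between 5.61 and 10.3 FPKM elsewhere. *Pgr*, the progesterone receptor, was at 27.1 FPKM in WT 3 and at most 0.714 FPKM elsewhere. All 5 proliferation markers were lowest in WT 3, with a summed level of 2.79 FPKM against 47.5, 52.3, 77.4 and 102 FPKM in WT 1, WT 2, KO 1 and KO 2. The differences, the arms, the pairs of genes and the ranks that rest on WT 3 are therefore given with and without it. Luminal markers were abundant in all 5 libraries, with the keratin gene *Krt8* between 2240 and 3653 FPKM.

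The molecular clock is a feedback loop of transcription. BMAL1, the product of *Arntl*, pairs with CLOCK or its paralog NPAS2 and binds E-boxes in the promoters of the *Per* and *Cry* genes, *Nr1d1*, *Nr1d2* and *Dbp*. PER and CRY proteins then inhibit the activator pair, while the REV-ERB receptors encoded by *Nr1d1* and *Nr1d2* repress *Arntl* and *Npas2* through ROR elements, at which the ROR receptors activate. In tissues with a running clock, mammary gland included, *Arntl* and *Nr1d1* transcripts therefore peak at nearly opposite phases of the day. Whether the activator arm and the arm of repressors and outputs differed in opposite directions between libraries was asked here.

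Promoter sequences from RefSeq (build GRCm38.p6, 250 bases before to 50 bases after a start site) were available for 9 of the 10 genes, with *Per2* as the remaining gene. Searched on both strands, the E-box CACGTG was present in the windows of *Cry1* and *Per1* and in 7.15% of all 32851 windows. The related E-prime box CACGTT was present in *Cry1* and *Nr1d1* and in 4.68% of windows. The D-box TTATGTAA, the element bound by DBP, was present in *Per3* and in 0.938% of windows. The ROR element TAGGTCA was present in *Arntl* and in 2.61% of windows. The D-box TTACGTAA (0.119% of windows), the ROR element TGGGTCA (3.98%) and the cAMP element TGACGTCA (1.79%) were in none of the 9. These letter matches are descriptions of the sequence, and no binding was measured. They are shown because such elements carry the loop: E-boxes are the sites of the activators, ROR elements the sites at which *Nr1d1* acts back on *Arntl*, and D-boxes the sites of DBP. Each stretch is written 5′ to 3′ on the gene's strand with the matched letters in capitals. The *Arntl* stretch, at chr7:113207530-113207559 (+), lies in an exon within the UTR, with the ROR element 30 bases downstream of the start. The *Cry1* stretch, at chr10:85185094-85185148 (-), lies upstream of the gene and holds the E-prime box, read as AACGTG, 79 bases and the E-box 60 bases before the start. The *Per1* stretch, at chr11:69098763-69098808 (+), lies within the annotated gene but in none of its exons, with the E-box 166 bases before the start. The *Nr1d1* stretch, at chr11:98775380-98775425 (-), is upstream of the gene, with the E-prime box, read as AACGTG, 28 bases before the start. The *Per3* stretch, at chr4:151044801-151044885 (-), is upstream of the gene, with D-boxes 205 and 158 bases before the start.
Arntl: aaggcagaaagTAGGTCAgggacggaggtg
Cry1: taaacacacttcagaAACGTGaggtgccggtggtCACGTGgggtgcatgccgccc
Per1: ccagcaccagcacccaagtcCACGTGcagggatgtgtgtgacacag
Nr1d1: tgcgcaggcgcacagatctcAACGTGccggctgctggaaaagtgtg
Per3: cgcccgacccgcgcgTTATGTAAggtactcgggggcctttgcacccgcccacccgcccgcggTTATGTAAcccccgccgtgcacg

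The genes themselves lie on several chromosomes of mm10 (GENCODE M21). *Arntl* (ENSMUSG00000055116) spans chr7:113207465-113314126 (+), *Clock* (ENSMUSG00000029238) chr5:76209868-76304792 (-), and *Npas2* (ENSMUSG00000026077) chr1:39193731-39363236 (+). *Per1* (ENSMUSG00000020893) spans chr11:69095217-69109960 (+), *Per2* (ENSMUSG00000055866) chr1:91415982-91459324 (-), *Per3* (ENSMUSG00000028957) chr4:151003652-151044665 (-), and *Cry1* (ENSMUSG00000020038) chr10:85131700-85185064 (-). *Nr1d1* (ENSMUSG00000020889) spans chr11:98767932-98775333 (-), *Nr1d2* (ENSMUSG00000021775) chr14:18204054-18239127 (-), and *Dbp* (ENSMUSG00000059824) chr7:45705088-45710203 (+). The library kit does not mark strand, and exons of 2 members overlap those of an expressed gene on the opposite strand. *Dbp* shares 539 of 2993 exon bases (18.0%) with *Sphk2*, and *Nr1d1* shares 263 of 3077 (8.55%) with *Thra*, so that some reads of each pair cannot be told apart.

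Among the 10 members, *Per1* was the most abundant transcript, with 87.3 ± 18.8 FPKM (mean ± SD, n = 5 libraries). A middle group followed, with *Nr1d1* at 25.7 ± 11.0, *Per2* at 21.4 ± 8.44, *Nr1d2* at 18.3 ± 4.73 and *Cry1* at 16.8 ± 2.51 FPKM, and neighbours in this order lay within 1 SD of each other. *Arntl* stood at 6.16 ± 1.24 FPKM and *Clock* at 3.69 ± 1.44 FPKM. *Npas2* at 2.40 ± 1.01, *Per3* at 2.13 ± 0.792 and *Dbp* at 1.59 ± 0.939 FPKM were the lowest and were also within 1 SD of each other. The activators were thus present at lower levels per length than 5 of the genes they drive.

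**Figure D1:**
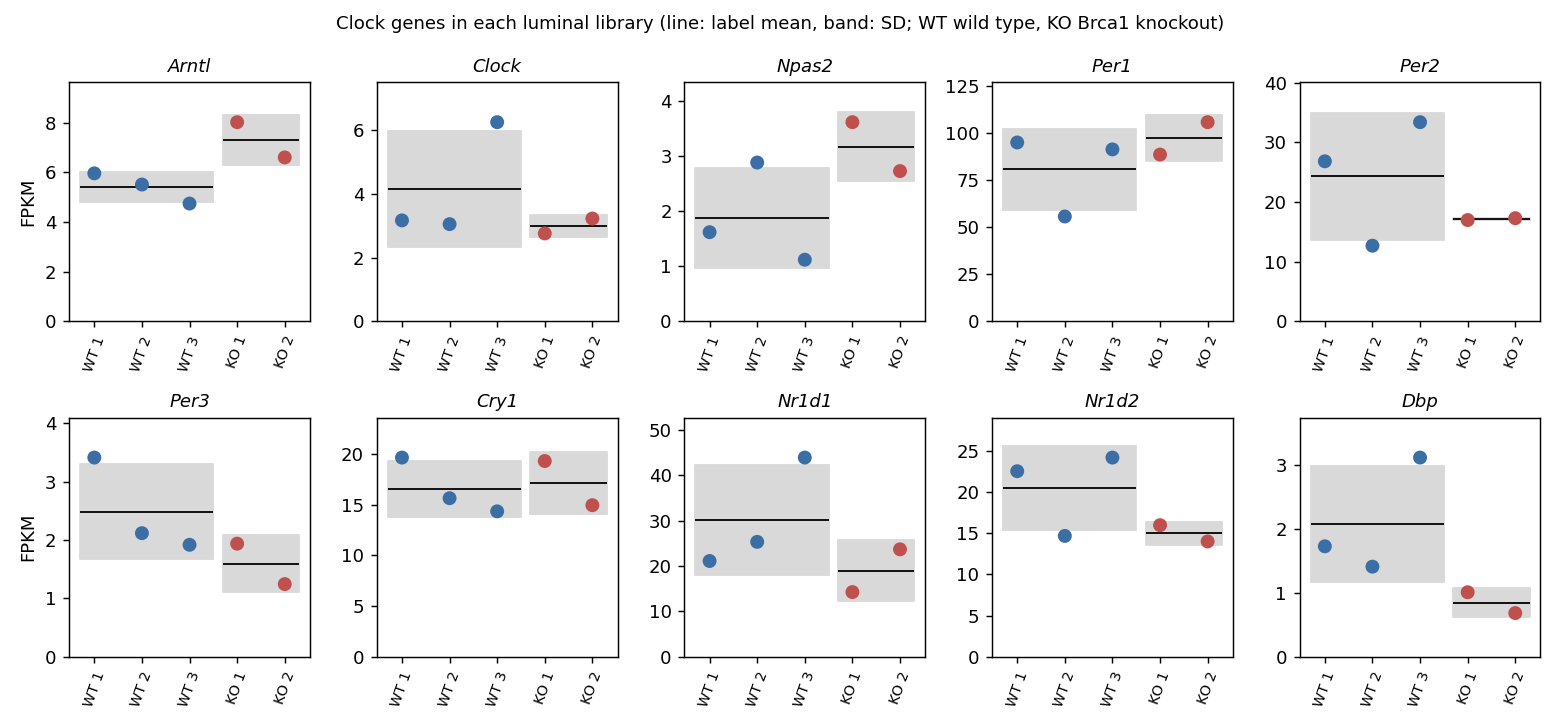
FPKM of the 10 clock genes (y axis, from 0, its range set for each gene) in the 5 luminal libraries (x axis). Points are libraries, lines the mean of each label and grey bands its SD (n = 3 wild type, n = 2 *Brca1* knockout). The labels do not overlap for *Arntl*, higher in KO, and *Dbp*, lower in KO, whereas for the other 8 genes they do.

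*Arntl*, which encodes the obligate partner of the activator pair, was at 5.95, 5.50 and 4.74 FPKM in WT 1, WT 2 and WT 3 and at 8.01 and 6.60 FPKM in KO 1 and KO 2. Both KO libraries lay above all 3 WT libraries, and WT 3 was the lowest. The means were 5.40 ± 0.614 (SD, n = 3) and 7.30 ± 1.00 FPKM (SD, n = 2), and the difference, KO minus WT, was 0.38 on the log2(FPKM + 1) scale (SE 0.20, 95% interval -0.12 to 0.87), with a limma adjusted p of 0.924 after Benjamini-Hochberg correction over all genes tested. *Arntl* was, with *Cry1*, among the most even members, since its highest value was 1.69-fold its lowest.

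*Npas2*, the paralog of *Clock*, was at 1.62, 2.89 and 1.12 FPKM in WT 1, WT 2 and WT 3 and at 3.62 and 2.73 FPKM in KO 1 and KO 2. KO 1 was the highest and WT 3 the lowest, as for *Arntl*, but WT 2 lay between the KO libraries, so that the labels overlapped. The difference was 0.58 (SE 0.33, 95% interval -0.26 to 1.41, limma adjusted p = 0.924, Benjamini-Hochberg).

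*Clock*, the other partner of BMAL1, was at 3.17, 3.05 and 6.26 FPKM in WT 1, WT 2 and WT 3 and at 2.76 and 3.23 FPKM in KO 1 and KO 2. It was nearly even in 4 libraries and high in WT 3, the library in which *Arntl* and *Npas2* were lowest. The difference of -0.32 (SE 0.32, 95% interval -1.13 to 0.50, limma adjusted p = 0.925, Benjamini-Hochberg) became -0.044 without WT 3. The ratio of *Npas2* to *Clock* was 0.179 in WT 3, 0.511 in WT 1, 0.846 in KO 2, 0.946 in WT 2 and 1.31 in KO 1. This ratio of the alternative partners was lowest in WT 3, and WT 2 again lay between the KO libraries.

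*Per1*, a repressor that also responds rapidly to glucocorticoid and cAMP, was at 95.01, 55.7 and 91.3 FPKM in WT 1, WT 2 and WT 3 and at 88.6 and 106 FPKM in KO 1 and KO 2. WT 2 was low and the other 4 libraries were close together. *Per2*, its paralog in the repressor complex, was at 26.8, 12.7 and 33.4 FPKM in WT 1, WT 2 and WT 3 and at 17.0 and 17.3 FPKM in KO 1 and KO 2. It was likewise lowest in WT 2, but the KO libraries lay below WT 1 and WT 3. *Per3*, the least abundant of the family, was at 3.41, 2.12 and 1.92 FPKM in WT 1, WT 2 and WT 3 and at 1.94 and 1.25 FPKM in KO 1 and KO 2. It was highest in WT 1 and lowest in KO 2, and its labels overlapped only through WT 3 and KO 1.

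The 3 *Per* genes thus did not share a single order of libraries. The differences between the labels were 0.30 for *Per1* (SE 0.29), -0.38 for *Per2* (SE 0.42) and -0.42 for *Per3* (SE 0.30), and none passed the test (limma adjusted p = 0.924, 0.926 and 0.924, Benjamini-Hochberg). That of *Per1* was 0.19 after median-of-ratios scaling. *Per1* was 2.74-fold to 4.40-fold as abundant as *Per2* in the WT libraries and 5.22-fold and 6.12-fold in KO 1 and KO 2, so that the ratio did not overlap between the labels. The ratio to *Per2* did not overlap for 11.8% of all genes tested. Of the 9 ratios of members computed, which were chosen with values known, 4 did not overlap, this one included. The others were *Clock* to *Arntl*, *Dbp* to *Arntl* and *Nr1d1* to *Npas2*. The ratio to *Arntl* did not overlap for 33.9% of all genes tested, and the share for *Npas2* was not computed, so the count of 4 has no background of its own. The ratio of *Per1* to *Per3* ranged from 26.3 in WT 2 to 85.0 in KO 2, and WT 3, at 47.6, lay above KO 1, at 45.7.

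*Cry1*, the partner of the PER proteins in repression, was at 19.7, 15.6 and 14.3 FPKM in WT 1, WT 2 and WT 3 and at 19.3 and 14.96 FPKM in KO 1 and KO 2. It was the most even of the 10 genes, with a highest value 1.37-fold its lowest. The difference between the labels was 0.048 (SE 0.22, 95% interval -0.51 to 0.60, limma adjusted p = 0.982, Benjamini-Hochberg) and turned to -0.058 after median-of-ratios scaling and -0.038 after quantile normalization, so that it had no stable direction.

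*Nr1d1*, which encodes REV-ERB alpha, was at 21.1, 25.3 and 43.9 FPKM in WT 1, WT 2 and WT 3 and at 14.3 and 23.7 FPKM in KO 1 and KO 2. WT 3 was the highest and KO 1 the lowest, whereas KO 2 lay between WT 1 and WT 2. *Nr1d2*, which encodes REV-ERB beta, was at 22.5, 14.7 and 24.2 FPKM in WT 1, WT 2 and WT 3 and at 16.0 and 14.0 FPKM in KO 1 and KO 2. It shared the maximum in WT 3 but had WT 2 beside the KO libraries. The differences were -0.61 for *Nr1d1* (SE 0.39, 95% interval -1.58 to 0.36) and -0.40 for *Nr1d2* (SE 0.26, 95% interval -1.06 to 0.26), both with a limma adjusted p of 0.924 (Benjamini-Hochberg). *Thra*, which overlaps *Nr1d1* on the opposite strand, was at 6.01, 6.15 and 9.43 FPKM in WT 1, WT 2 and WT 3 and at 8.43 and 8.11 FPKM in KO 1 and KO 2, so that it too was highest in WT 3. The part of these shared exons in the *Nr1d1* values was not tested.

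*Dbp*, a transcription factor driven by the activators and often read as the output of the loop, was at 1.72, 1.41 and 3.11 FPKM in WT 1, WT 2 and WT 3 and at 1.01 and 0.682 FPKM in KO 1 and KO 2. Both KO libraries lay below all 3 WT libraries, and WT 3 was again the highest. The means were 2.08 ± 0.906 (SD, n = 3) and 0.844 ± 0.230 FPKM (SD, n = 2), and the difference was -0.71 (SE 0.33, 95% interval -1.53 to 0.12, limma adjusted p = 0.924, Benjamini-Hochberg). With a pseudocount of 0.1 in place of 1 it was -1.15. The level was low, so that the estimated number of fragments behind it was 11.7 in KO 1, 19.6 in WT 1, 26.6 in KO 2, 33.4 in WT 2 and 173 in WT 3. *Dbp* was the most variable member in folds, with a highest value 4.56-fold its lowest. *Sphk2*, on the opposite strand, was lowest in WT 3 at 6.34 FPKM and between 8.86 and 12.3 FPKM elsewhere. The part of the shared exons in the *Dbp* values was not tested.

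Of the 10 clock genes, 0 passed an adjusted p of 0.05 between the labels, and 0 of all 11481 genes did (limma, 0%). At an unadjusted p under 0.05 the counts were 0 of 10 and 372 of 11481 (3.24%). These counts depended on single libraries: without WT 2 they were 3 of 10 (*Npas2*, *Per2* and *Nr1d2*) and 239 of 11387, and with each other library left out 0 of 10, with 887 genes without WT 1, 789 without WT 3, 151 without KO 1 and 100 without KO 2. An exact two-sided rank test of 3 against 2 libraries cannot give a p below 0.2. The labels did not overlap for 1 member with higher values in KO, *Arntl*, against 17.5% of all genes, and for 1 with lower values in KO, *Dbp*, against 5.77% of all genes, and in either direction for 2 of 10 against 23.3%, so that the members' counts were near this background. The differences were above 0 for 4 members and below 0 for 6, with a median of -0.35, whereas the median of all genes was 0.11. Without WT 3 the medians were -0.075 and 0.031, and with each other library left out that of the members lay between -0.47 (without WT 2) and -0.25. The median size of the difference, regardless of sign, was 0.39 for the members and 0.21 for all genes. The median SD over the 5 libraries was 0.37 and 0.30 on the log2 scale. Without WT 3 the differences were 0.30 for *Arntl*, 0.38 for *Npas2*, 0.41 for *Per1*, -0.11 for *Per2*, -0.53 for *Per3*, -0.042 for *Cry1*, -0.31 for *Nr1d1*, -0.27 for *Nr1d2* and -0.48 for *Dbp*. Those of *Per2*, *Nr1d1* and *Npas2* thus shrank by more than 1.5 times, as did that of *Clock*. Other libraries moved values as far: *Per1* was at 0.055 without WT 2 and 0.17 without KO 2, *Per2* at -0.77 without WT 2, *Per3* at -0.23 without WT 1 and -0.22 without KO 2, *Nr1d2* at -0.61 without WT 2, and *Nr1d1* at -0.27 without KO 1 and -0.96 without KO 2. In bulk RNA, a difference in the number of cells of a type and a difference in RNA per cell cannot be told apart.

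**Figure D2:**
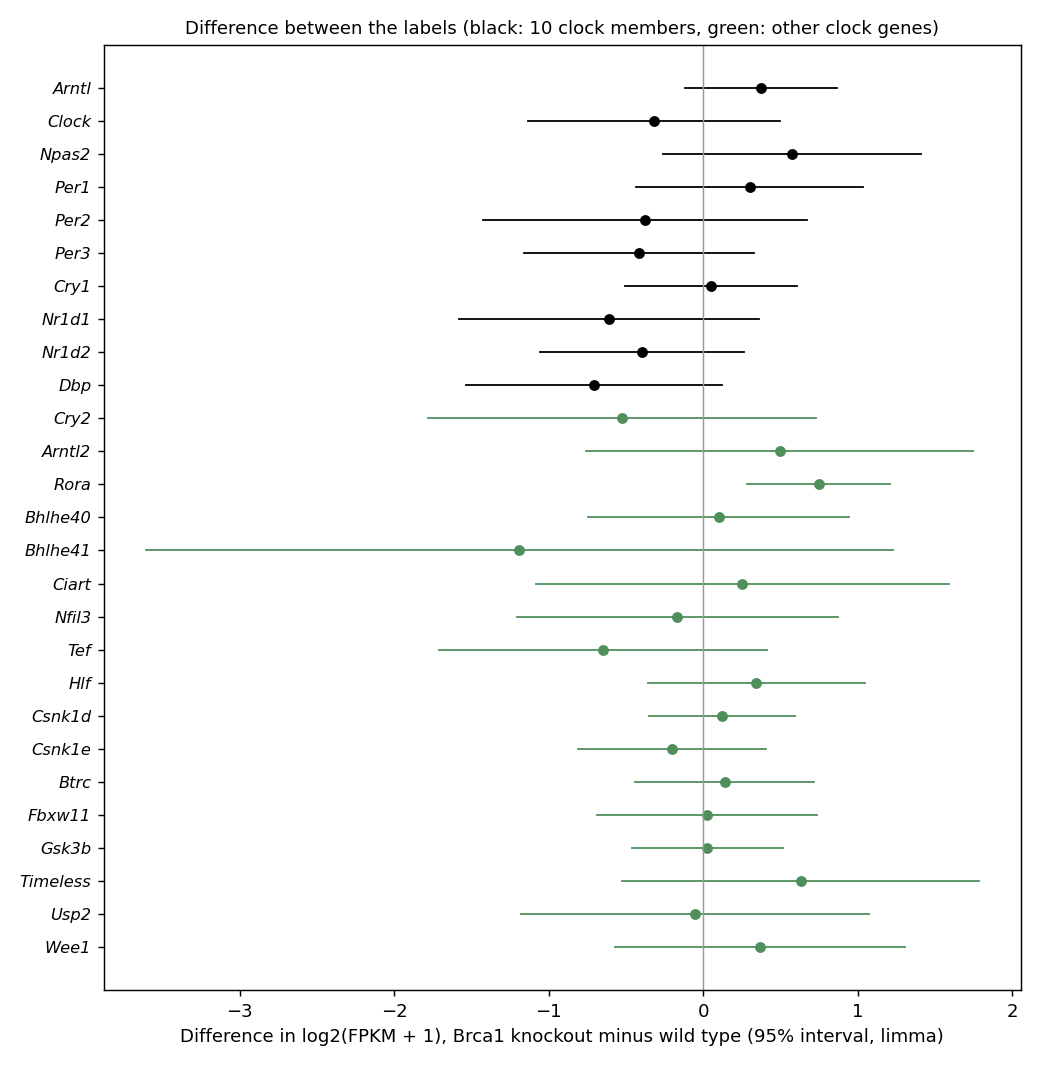
Difference in log2(FPKM + 1), *Brca1* knockout minus wild type (x axis), with its 95% interval from limma, for the 10 members (black) and 17 of the 19 other clock genes tested (green). All 10 intervals of the members include 0, *Arntl* reached from -0.12 to 0.87 and *Dbp* from -1.53 to 0.12, the sign for *Cry1* flipped with the scaling, and only the interval of *Rora* (0.28 to 1.21) lies to one side.

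To set the arms side by side, each gene was expressed as its deviation from its own mean over the 5 libraries in log2(FPKM + 1), and the deviations were averaged over *Arntl*, *Clock* and *Npas2* and over *Per1*, *Per2*, *Per3*, *Nr1d1*, *Nr1d2* and *Dbp*. *Cry1*, whose transcription is also known to be set by ROR elements, was kept apart. The activator mean was -0.16, -0.013 and -0.084 in WT 1, WT 2 and WT 3 and 0.19 and 0.062 in KO 1 and KO 2. The mean of repressors and outputs was 0.23, -0.24 and 0.45 in WT 1, WT 2 and WT 3 and -0.23 and -0.21 in KO 1 and KO 2. Activators were above repressors and outputs in KO 1, KO 2 and WT 2 and below them in WT 1 and WT 3. Counted by gene, 5 of 6 repressors and outputs were above their own mean in WT 1 and in WT 3, 2 in WT 2 and 1 in each KO library. The activators above their own mean were 0, 1 and 1 of 3 in WT 1, WT 2 and WT 3 and 2 in each KO library, where *Clock* was the exception.

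The arms differed in opposite directions in 7 of the 10 pairs of libraries. The exceptions were WT 1 with WT 3, in which both arms were higher in WT 3, and WT 2 with KO 1 and with KO 2, in which the repressors and outputs were nearly level, at -0.0058 and -0.031 (WT 2 minus KO). Of the 7 opposite pairs, KO 1 with KO 2 rested on a repressor and output difference of similar size, at -0.025 (KO 1 minus KO 2). The pairs share libraries and the genes were chosen with results known, so no test was made. The activator mean minus the mean of repressors and outputs was -0.23 ± 0.40 in WT (SD, n = 3) and 0.35 ± 0.11 in KO (SD, n = 2). The WT values were -0.38, 0.23 and -0.54 and the KO values 0.42 and 0.27, so that WT 2 lay close to the KO libraries and the labels differed by 0.58 against a pooled SD of 0.34. Without WT 3 the difference was 0.43 and 4 of 6 pairs were opposite. Without *Clock*, an alternative chosen after its values were seen, the difference was 0.84, and after quantile normalization 5 of 10 pairs were opposite. With *Cry1* among the repressors and outputs the difference was 0.52 and 6 of 10 pairs were opposite. Without *Per1* the difference was 0.71 and 8 of 10 pairs were opposite.

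**Figure D3:**
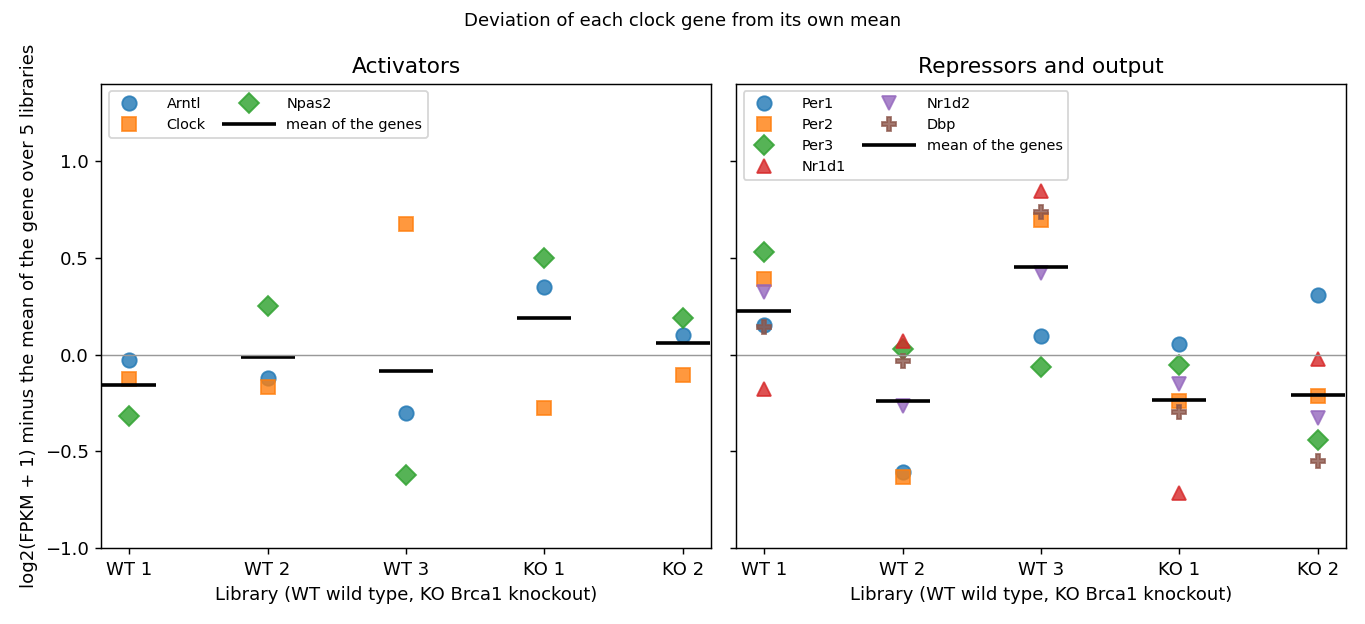
Deviation of each gene from its own mean over the 5 libraries in log2(FPKM + 1) (y axis) by library (x axis), with activators on the left and repressors and outputs on the right; black bars are the means of the genes shown. *Arntl* and *Npas2* are lowest and *Clock* highest in WT 3, where the repressors and outputs average 0.45, and they average -0.23 and -0.21 in KO 1 and KO 2.

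Single genes were also set against each other. *Arntl* and *Nr1d1* differed in opposite directions in 9 of 10 pairs of libraries, and WT 1 with KO 2 was the exception. At least as many opposite pairs were found for 4.05% of all genes tested when set against *Arntl* (median 4) and for 13.5% when set against *Nr1d1* (median 6). *Arntl* was opposite to *Dbp* in 8 pairs, a count reached by 9.26% of genes against *Arntl* and 22.5% against *Dbp*, and to *Per2*, *Nr1d2* and *Clock* in 7 each. It was opposite to *Per3* in 5, *Per1* in 4, *Cry1* in 3 and *Npas2* in 2. *Npas2* was opposite to *Per2* in 9 pairs (1.80% of genes against *Npas2*, 4.56% against *Per2*), to *Clock* in 9 (1.80% against *Npas2*, 4.77% against *Clock*) and to *Dbp* in 8. It was opposite to *Nr1d1* and *Nr1d2* in 7 each, to *Per1* in 6 (26.7% against *Npas2*), to *Per3* in 5 (44.8%), to *Cry1* in 3 and to *Arntl* in 2. *Clock* was opposite to *Npas2* in 9 pairs, to *Cry1* in 8, to *Arntl* in 7, to *Per3* in 6, to *Nr1d2* in 4, to *Per1* and *Dbp* in 3 each and to *Per2* and *Nr1d1* in 2 each. The median gene was opposite to *Clock* in 6 pairs, and at least 8, 7 and 6 were reached by 16.9%, 35.5% and 55.1% of genes. Without WT 3, an alternative chosen after the values were seen, 6 pairs of libraries remain and the median gene was opposite in 3. *Arntl* and *Nr1d1* were then opposite in 5 (16.0% of genes against *Arntl* had at least as many), *Arntl* and *Dbp* in 4 (32.5%), and *Arntl* and *Per2*, *Nr1d2* or *Clock* in 3 each (53.5%). *Npas2* was opposite to *Per2* and to *Clock* in 5 each (14.96% of genes against *Npas2*).

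In linear terms, the ratio of *Nr1d1* to *Arntl* was 3.55, 4.60 and 9.26 in WT 1, WT 2 and WT 3 and 1.78 and 3.59 in KO 1 and KO 2. WT 3 was the highest and KO 1 the lowest, and KO 2 lay just above WT 1. The ratio of *Dbp* to *Arntl* was 0.290, 0.255 and 0.656 in WT 1, WT 2 and WT 3 and 0.126 and 0.103 in KO 1 and KO 2, another of the 4 ratios without overlap between the labels. This outcome was fixed by the single genes and adds nothing to them. *Dbp* was lower and *Arntl* higher in both KO libraries than in every WT library, so their ratio could not overlap. The ratio to *Arntl* did not overlap for 33.9% of all genes tested. The ratio of *Per2* to *Arntl* was 4.50, 2.30 and 7.04 in WT 1, WT 2 and WT 3 and 2.12 and 2.62 in KO 1 and KO 2, with WT 2 between the KO libraries. *Nr1d1* and *Nr1d2* were not in a fixed ratio either, with 0.937 in WT 1 and 0.892 in KO 1 against 1.73, 1.81 and 1.69 in WT 2, WT 3 and KO 2. The pair of low ratios came from the shallowest libraries, and the part of depth in them was not tested.

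Other clock genes were described from a list of 21, of which 19 were tested, and 0 passed an adjusted p of 0.05. *Rorb* and *Fbxl21* were below the filter at no more than 0.121 FPKM. Of the 19, 12 were higher and 7 lower in KO on average, with a median difference of 0.10, close to the 0.11 of all genes. *Rora*, which encodes a receptor that activates at ROR elements, was at 12.9, 10.8 and 13.8 FPKM in WT 1, WT 2 and WT 3 and at 22.4 and 20.8 FPKM in KO 1 and KO 2. The KO libraries lay above the WT libraries, with a difference of 0.75 (SE 0.19, 95% interval 0.28 to 1.21, limma unadjusted p = 0.00858, adjusted p = 0.924, Benjamini-Hochberg). It was the only 1 of the 29 tested clock genes with an unadjusted p under 0.05, and this was lost without KO 1 (difference 0.69, unadjusted p = 0.0699). *Tef* and *Wee1* came under 0.05 without WT 2 and without WT 3, respectively. The labels did not overlap for 2 of the 19, both higher in KO, against 17.5% of all genes, and for 0 lower in KO, against 5.77%. *Timeless*, a replication fork gene related to the fly clock gene, was the other of these, with 2.25, 2.23 and 0.376 FPKM in WT 1, WT 2 and WT 3 and 2.41 and 3.16 FPKM in KO 1 and KO 2.

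In 11 of these 19 genes the highest value was in WT 3 (18.5% of all genes), and in 11 of 19 the lowest was in WT 2 (15.5% of all genes). Of the 10 members, 5 were highest in WT 3, namely *Clock*, *Per2*, *Nr1d1*, *Nr1d2* and *Dbp*, 2 in WT 1 (24.2% of all genes), 0 in WT 2 (16%), 2 in KO 1 (20.1%) and 1 in KO 2 (21.2%). The lowest value of 0 members was in WT 1 (13.6% of all genes), of 2 in WT 2, of 3 in WT 3, of 2 in KO 1 (9.75%) and of 3 in KO 2 (9.39%). For *Arntl*, *Npas2* and *Cry1* it was in WT 3, where the lowest values of most genes were found. *Cry2*, the paralog of *Cry1*, was at 6.58, 3.75 and 13.7 FPKM in WT 1, WT 2 and WT 3 and at 5.51 and 3.83 FPKM in KO 1 and KO 2. *Tef*, a relative of *Dbp* that binds the same D-box, was at 7.10, 3.20 and 8.71 FPKM in WT 1, WT 2 and WT 3 and at 4.34 and 2.65 FPKM in KO 1 and KO 2. *Cry2* and *Tef* were thus high in WT 3 and WT 1 and low in WT 2 and KO 2. *Hlf*, the third factor of that family, had the opposite extreme, with 6.43 FPKM in WT 3 and 8.71 to 12.1 FPKM elsewhere. *Bhlhe41*, a repressor at E-boxes, stood out in WT 3 with 74.9 FPKM, against values from 6.81 to 12.6 FPKM elsewhere. Its paralog *Bhlhe40* was the most abundant gene of the list, at 90.0, 107 and 182 FPKM in WT 1, WT 2 and WT 3 and at 124 and 134 FPKM in KO 1 and KO 2. *Nfil3*, which represses at D-boxes, was at 30.7 FPKM in WT 3 and between 12.7 and 23.7 FPKM elsewhere. *Ciart*, a repressor of the activator pair, was at 0.870 FPKM in WT 3 and 2.81 to 5.39 FPKM elsewhere, and *Arntl2*, the paralog of *Arntl*, was at 4.81 and 5.34 FPKM in WT 1 and KO 1 and at 1.42, 1.62 and 2.45 FPKM in WT 2, WT 3 and KO 2.

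The enzymes that set the stability of the clock proteins were more even. The kinase gene *Csnk1d* lay between 60.05 and 79.2 FPKM, and *Gsk3b* between 11.3 and 14.9 FPKM. The ubiquitin ligase genes *Btrc* and *Fbxw11*, which act on PER proteins, lay between 1.37 and 1.90 FPKM and between 23.8 and 41.0 FPKM. *Csnk1e* was at 48.2 FPKM in WT 3 and between 31.2 and 33.1 FPKM elsewhere. The clock-driven genes *Usp2* and *Wee1* were lowest in WT 2, at 6.47 and 30.3 FPKM, and highest in WT 3, at 18.8 and 70.5 FPKM.

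**Figure D4:**
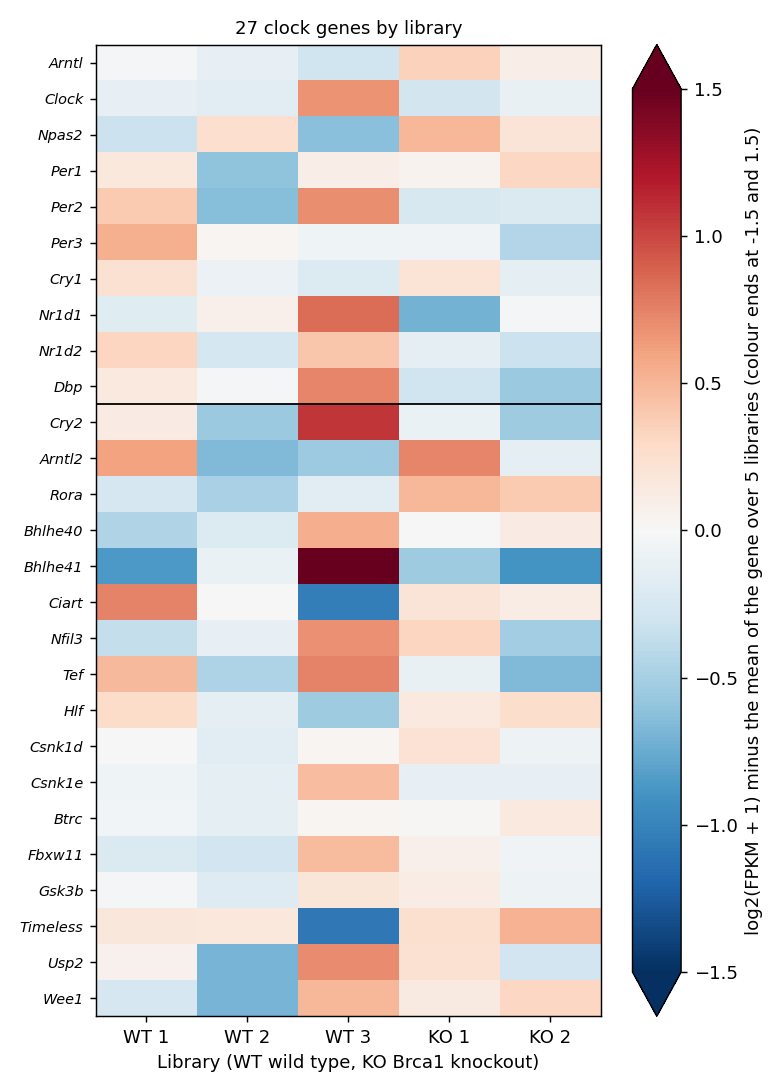
Deviation of each gene from its own mean over the 5 libraries in log2(FPKM + 1) (colour, ending at -1.5 and 1.5) for the 10 members above the line and 17 of the 19 other clock genes tested below it, by library (x axis). WT 3 is the highest library for 5 of the 10 members and 10 of the 17 other genes shown, and WT 2 the lowest for 10 of the 17.

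The genes whose deviations were most like those of *Arntl*, among 7748 genes whose mean reached 5 FPKM, were *Cdadc1*, *Commd10*, *Fbxo30*, *Prmt6* and *Nufip1*, with root mean square differences of 0.022 to 0.047 over the 5 libraries. In that order *Cry1* came 1350th, *Npas2* 3802nd and *Per1* 5076th, whereas *Dbp* and *Nr1d1* came 6949th and 7087th. The measure counts the size of a deviation as well as its direction, and *Arntl* and *Cry1* were both among the most even members. Here and below, *Clock*, *Npas2*, *Per3* and *Dbp*, whose means were below 5 FPKM, were ranked against these genes without being among them. The genes most like *Dbp*, among 7749, were *Dnajc3*, *Hilpda*, *S100a13*, *Spint1* and *Cadm4*, with differences of 0.10 to 0.13. *Nr1d2* came 66th, *Clock* 91st, *Per2* 393rd and *Nr1d1* 462nd, with *Arntl* 4671st and *Npas2* 6637th. *Per3* came 1042nd, *Cry1* 2489th and *Per1* 3534th. These ranks rest largely on WT 3: without it, likewise chosen after the values were seen, *Nr1d2* came 679th, *Clock* 2643rd, *Per2* 5188th and *Nr1d1* 5438th from *Dbp*, whereas *Per3* came 149th. From *Arntl*, *Cry1* came 2714th, *Npas2* 4210th, *Dbp* 6728th and *Nr1d1* 7122nd without WT 3, and the 5 genes named for *Arntl* came between 2nd and 50th. The 5 genes named for *Dbp* came between 13th and 205th without it.

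Other values moved with these genes between libraries. WT 3, in which 5 members were highest, also had the highest sum of the 5 mature luminal markers, at 279 FPKM (most abundant *Prlr*) against 27.7, 39.7, 16.7 and 27.9 FPKM in WT 1, WT 2, KO 1 and KO 2. The proliferation markers did not overlap between the labels for 5 of 5 genes, higher in KO (17.5% of all genes), and were lowest in WT 3. All 7 early response genes of tissue dissociation were lowest in WT 2, the library with the least *Per1* and *Per2*, with sums of 2999, 1675, 3679, 2674 and 3053 FPKM in WT 1, WT 2, WT 3, KO 1 and KO 2 (most abundant *Fos*, at 409 FPKM in WT 2 and 557 to 960 FPKM elsewhere). The 6 glucocorticoid-responsive genes summed to 707, 644, 623, 751 and 569 FPKM in the same order (most abundant *Sgk1*). Their differences were above 0 for 2 and below 0 for 4. Of the 6, 1 did not overlap between the labels and was higher in KO, near the 17.5% of all genes. This was *Klf9*, a clock-regulated factor, which was at 48.5, 58.7 and 63.5 FPKM in WT 1, WT 2 and WT 3 and at 80.8 and 83.4 FPKM in KO 1 and KO 2 (difference 0.53, limma adjusted p = 0.924, Benjamini-Hochberg). The digestion medium of the study held hydrocortisone. The part of cell composition, of early response and of glucocorticoid in the clock values was not tested.

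Markers of cells outside the luminal gate varied as well. The 5 immune markers summed to 25.9, 914, 239, 27.1 and 470 FPKM in WT 1, WT 2, WT 3, KO 1 and KO 2, mostly as *Cd74*, and *Cd3e* was at 0 in WT 1 and KO 1. The 5 fibroblast markers summed to 2.92, 105, 82.7, 3.78 and 12.1 FPKM (most abundant *Col3a1*, or *Dcn* in WT 3), and the 3 endothelial markers to 0.351, 5.13, 5.29, 0.331 and 0.138 FPKM (most abundant *Pecam1*, with *Kdr* at 0 in WT 1 and KO 1). The 3 adipocyte markers summed to 4.83, 36.8, 17.9, 2.80 and 2.08 FPKM, nearly all *Fabp4*, and *Adipoq* was at 0 in every library except WT 3. There it was at only 0.0296 FPKM, an estimated 1.16 fragments in the deepest library. The 5 basal markers summed to 60.5, 122, 6.90, 32.5 and 48.8 FPKM (most abundant *Krt14*), the 5 luminal progenitor markers to 2710, 3534, 2284, 2598 and 2805 FPKM (mostly as *Csn3*), and the 5 luminal markers to 6941, 6150, 10107, 7081 and 6231 FPKM. Of the luminal progenitor markers, 2 were highest and 2 others lowest in WT 3, so that their sum does not stand for a shared course. The 5 reference genes, with *Actb* at 1060, 1326 and 1557 FPKM in WT 1, WT 2 and WT 3 and 954 and 1053 FPKM in KO 1 and KO 2, were not even throughout. Of these, 2 of 5, *Actb* and *Hprt*, did not overlap between the labels and were lower in KO, against 5.77% of all genes, and 0 passed the limma test.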

How the data were processed

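Deposited FPKM values of 5 sorted luminal libraries were analysed, while tumors and single cells were not used here. Per the submitters' processing notes, the authors trimmed reads with Trimmomatic 0.35, aligned them to mm10 with TopHat2 2.0.13 and estimated the deposited FPKM with Cufflinks 2.2.1. The annotation is not given in the sources used here. The labels' extraction protocol speaks of tumors. Of 24346 rows, 27 with a date for a gene name were left out. No counts or totals were used here. Depth was taken from the steps between low FPKM values times transcript length, using 131 to 197 genes a library, of which 52.1% to 58.8% lay near whole multiples (30% by chance), so the depth is approximate and no count model was used. Values were analysed as log2(FPKM + 1), which understates changes of low genes, with limma 3.58.1 (R 4.3.3; lmFit, eBayes with trend) for the 11481 genes whose mean reached 1 FPKM, Benjamini-Hochberg adjustment and a threshold of 0.05. The fit was tested on simulated data. Some listed genes count in the totals but are not reported singly here. Tables and sequences were handled in Python 3.11.15. Coordinates are from GENCODE M21 and promoters from RefSeq. The members, arms and lists were chosen with earlier results of these data known. All members, listed genes and the 5 genes nearest *Arntl* and *Dbp* are named. Replicate numbers follow accession order and pair nothing. Alternatives were the pseudocount (0.1), scaling, filter, trend, each library left out and the arms' membership.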

Additional observations from a re-analysis of the deposited data

How the results depend on the processing

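The count of clock genes called by limma was 0 under all alternatives run, as was that of the 19 other clock genes. Over all genes the count called was 0, and between 0 and 14 with a library left out: 14 without KO 1, 4 without KO 2, 2 without WT 1 and 0 without WT 2 or WT 3. Of 106 alternative values of the members, 102 kept their direction. The 4 that turned were all of *Cry1*: -0.058 with median-of-ratios scaling, -0.038 with quantile normalization, and -0.13 to 0.22 over the libraries left out (-0.13 without KO 1, -0.042 without WT 3). The cause was not tested. *Clock*, *Npas2*, *Per3* and *Dbp* have no value under the filter of a mean of 5 FPKM. Median-of-ratios scaling moved the median difference of all genes by -0.10. The arms differed between the labels by 0.43 without WT 3 and 0.81 without WT 2, the ends of the range over libraries left out. They differed by 0.84 without *Clock* among the activators, 0.52 with *Cry1* among the repressors and outputs and 0.77 with a pseudocount of 0.1. No paired analysis was possible because the labels give no replicate numbers shared between the groups. The limit is 3 libraries against 2, of unequal depth, with no hour of collection given.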
